A study of Rattus norvegicus with 6 samples.

Results

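Nuclear factor I and Groucho genes were followed in RNA sequencing of neonatal rat ventricular myocytes, which are heart muscle cells of newborn rats in primary culture. The genes were taken by symbol: the 4 nuclear factor I genes Nfia, Nfib, Nfic and Nfix, and the 5 Groucho genes Aes, Tle1, Tle2, Tle3 and Tle4. All 9 were found, on 1 row each, among 13843 rows. The 6 libraries fall into 3 groups of 2: phenylephrine with TSA and a JIP1 hairpin (PE+TSA+shJIP1), phenylephrine with TSA and a control hairpin (PE+TSA), and phenylephrine with the control hairpin (PE), each kept for 3 days. Every culture therefore received phenylephrine, an alpha-1 adrenergic agonist that makes cultured cardiomyocytes grow, and a short hairpin RNA. TSA is not written out in the labels and commonly stands for the histone deacetylase inhibitor trichostatin A, and JIP1 is the JNK scaffold protein encoded by Mapk8ip1. The series text speaks of a JIP1 knockout where the sample labels name a hairpin, and it is called a hairpin throughout. Nothing says that same-group libraries were separate cultures, so p-values measure only the spread between these libraries, which may be technical.

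Nuclear factor I proteins are transcription factors that share a DNA-binding domain, bind DNA as dimers and can activate or repress genes in many tissues. In skeletal muscle of the mouse, Nfix takes part in the switch from embryonic to fetal myogenesis. Groucho proteins bind no DNA themselves: Tle1, Tle2, Tle3 and Tle4 are long corepressors that are brought to genes by factors of the Hes, Runx and TCF families, and they work in part through histone deacetylases. Aes, named Tle5 in current rat annotation, is the short member of the family, which keeps the amino-terminal part of the long proteins, lacks their WD-repeat domain and can counteract them.

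The genes were chosen by their FPKM with results of these data known, and the choice rests on the lower level of Nfic and Aes between PE+TSA+shJIP1 and PE+TSA. Values of that comparison are therefore given as a description with no test for any member. The other comparisons, PE+TSA+shJIP1 against PE and PE+TSA against PE, were tested with limma on log2(FPKM + 1) over the 10359 features whose mean reached 1 FPKM, a read density per transcript length and library size. All 9 members passed this filter. These comparisons share libraries with the one that guided the choice, so a member picked because it was low in PE+TSA+shJIP1 is also low against PE for that reason.

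The libraries differ in depth. PE replicate 2 had about 0.048 of the depth of PE replicate 1, as read from the steps between low values, and the other 4 libraries had 0.722 to 1.34. The totals are unknown, so no counting interval can be given. Mapk8ip1 was at 1.80 and 3.65 FPKM in PE+TSA+shJIP1, 14.6 and 17.9 in PE+TSA, against 3.77 and 4.39 in PE, lowest in both PE+TSA+shJIP1 libraries. Its log2 change in PE+TSA+shJIP1 was -2.25 ± 0.342 against PE+TSA and -0.49 ± 0.342 against PE. Neither passed at an adjusted p under 0.05 (limma adjusted p = 0.077 and 0.369). Of 10 cardiomyocyte markers, 9 were tested, and Tnnt2, the cardiac troponin T gene, lay between 1840 and 7220 FPKM. Summed levels of this list lay between 4970 and 9510 FPKM in PE+TSA+shJIP1, and between 4950 and 10800 in PE+TSA, against 19100 to 24000 in PE.

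Nfic, Aes and Tle2 lie close together on rat chromosome 7. In the RefSeq annotation of the assembly GRCr8, Tle2 and Aes are direct neighbours, and 5 genes stand between Aes and Nfic. The annotated promoters of these 3 genes, from 250 bases before to 50 bases after the start, are shown because Nfic and Aes are the members with the lowest relative level under the JIP1 hairpin while Tle2, beside them, was not low. Sequences are from RefSeq, build GRCr8, 5′ to 3′ on the strand of the gene. Capitals mark TTGGC, the core of the nuclear factor I recognition motif, on either strand (GCCAA on the other).
Nfic, chr7:8932919-8933218, plus strand: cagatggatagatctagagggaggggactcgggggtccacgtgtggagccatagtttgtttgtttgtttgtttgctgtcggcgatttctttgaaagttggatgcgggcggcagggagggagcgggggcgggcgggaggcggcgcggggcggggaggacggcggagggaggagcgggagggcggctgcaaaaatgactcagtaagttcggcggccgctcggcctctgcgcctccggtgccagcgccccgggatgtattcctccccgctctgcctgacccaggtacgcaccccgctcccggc
Aes, chr7:8800873-8801172, minus strand: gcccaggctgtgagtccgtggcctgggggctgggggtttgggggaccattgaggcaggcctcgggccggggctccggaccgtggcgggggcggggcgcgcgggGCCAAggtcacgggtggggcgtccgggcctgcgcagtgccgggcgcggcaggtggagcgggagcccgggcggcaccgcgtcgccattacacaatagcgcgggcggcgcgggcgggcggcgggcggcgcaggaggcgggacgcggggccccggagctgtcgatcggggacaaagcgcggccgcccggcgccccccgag
Tle2, chr7:8785016-8785315, minus strand: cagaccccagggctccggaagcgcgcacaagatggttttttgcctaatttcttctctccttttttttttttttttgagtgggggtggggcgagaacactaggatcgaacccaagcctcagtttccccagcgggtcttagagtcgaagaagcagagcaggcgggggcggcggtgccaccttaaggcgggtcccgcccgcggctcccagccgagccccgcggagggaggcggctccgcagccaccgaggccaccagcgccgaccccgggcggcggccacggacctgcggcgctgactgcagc
The core motif occurs 1 time in the Aes window and in none of the other 2 windows. Over all 9 members it occurs in 4 promoters (Aes, Tle1, Tle3 and Tle4), and in 45.8% of 33469 rat promoters of the same length. The full palindrome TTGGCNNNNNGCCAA, which holds the core on both strands, occurs in 0 of the 9 and in 0.0418% of all promoters. The G and C content was 66.7% for Nfic, 80.7% for Aes and 65.7% for Tle2, against a median of 51.7% over all promoters. A match describes these windows and is not a measured binding site, and the values were made on another build, rn6.

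Nfic, Nfix and Aes were the members that fell in PE+TSA+shJIP1 against PE, and the other 6 did not pass. Nfic, an activator and repressor found in most tissues, was at 18.3 and 23.3 FPKM in PE+TSA+shJIP1, 78.2 and 76.3 in PE+TSA, against 113 and 116 in PE. The 3 groups do not overlap and lie in the order PE, PE+TSA, PE+TSA+shJIP1 from high to low, with libraries of a group within 1.27-fold of each other. PE+TSA+shJIP1 reached 0.182 of the PE mean (log2 change -2.42 ± 0.198 SE, n = 2 libraries each, limma adjusted p = 0.0103) and 0.269 of the PE+TSA mean. PE+TSA stood at 0.674 of the PE mean, which did not pass (log2 change -0.56 ± 0.198, limma adjusted p = 0.212, unadjusted p = 0.0282). Nfic was above 93.6% of tested features in PE replicate 1 and above 63.6% in PE+TSA+shJIP1 replicate 1.

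Nfix was at 25.5 and 19.3 FPKM in PE+TSA+shJIP1, 43.9 and 38.8 in PE+TSA, against 55.1 and 52.9 in PE. It keeps the same order as Nfic without overlap, over a narrower range. Its log2 change in PE+TSA+shJIP1 against PE was -1.24 ± 0.216 (limma adjusted p = 0.0277), or 0.415 of the PE mean, and against PE+TSA the mean ratio was 0.542. With TSA alone the log2 change was -0.38 ± 0.216 and did not pass (limma adjusted p = 0.39).

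Nfia, a factor best known from the switch to glia formation in the developing nervous system, was at 79.1 and 67.2 FPKM in PE+TSA+shJIP1, 99.8 and 73.8 in PE+TSA, against 78.6 and 45.0 in PE. Its groups overlap in all 3 comparisons. Nfib, known for its need in lung maturation and brain development of the mouse, was at 102 and 89.4 FPKM in PE+TSA+shJIP1, 96.4 and 82.2 in PE+TSA, against 89.2 and 59.1 in PE. For both genes the lowest value is that of PE replicate 2, the shallow library, and the part of depth in it was not tested. The log2 change in PE+TSA+shJIP1 against PE was 0.29 ± 0.315 for Nfia and 0.39 ± 0.253 for Nfib (limma adjusted p = 0.568 and 0.337), and without PE replicate 2 it was -0.11 and 0.10. With TSA alone it was 0.52 ± 0.315 and 0.29 ± 0.253 (limma adjusted p = 0.408 and 0.564), and without PE replicate 2 it was 0.13 and -0.0025.

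The make-up of the nuclear factor I family therefore differed between groups. Nfic held 8.14% and 11.7% of the summed FPKM of the 4 genes in PE+TSA+shJIP1, 24.6% and 28.1% in PE+TSA, against 33.7% and 42.5% in PE. Nfib held 45.4% and 44.9% in PE+TSA+shJIP1, 30.3% in each PE+TSA library, and 26.5% and 21.6% in PE. The summed level was 225 and 199 FPKM in PE+TSA+shJIP1, 318 and 271 in PE+TSA, against 336 and 273 in PE. Nfib itself was at 102 and 89.4 FPKM in PE+TSA+shJIP1 and 96.4 and 82.2 in PE+TSA. Its larger share between these groups therefore comes mostly with the lower sum. Nfic was chosen for being low in PE+TSA+shJIP1, so its lower share there is no independent result. In PE replicates 1 and 2 Nfic was the most abundant of the 4 genes per length, and in both PE+TSA+shJIP1 libraries Nfib was, with Nfic the lowest in replicate 1 and Nfix the lowest in replicate 2. With 2 libraries against 2, an exact permutation test of such a share cannot go below a two-sided p of 0.333, so none is given.

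**Figure D1:**
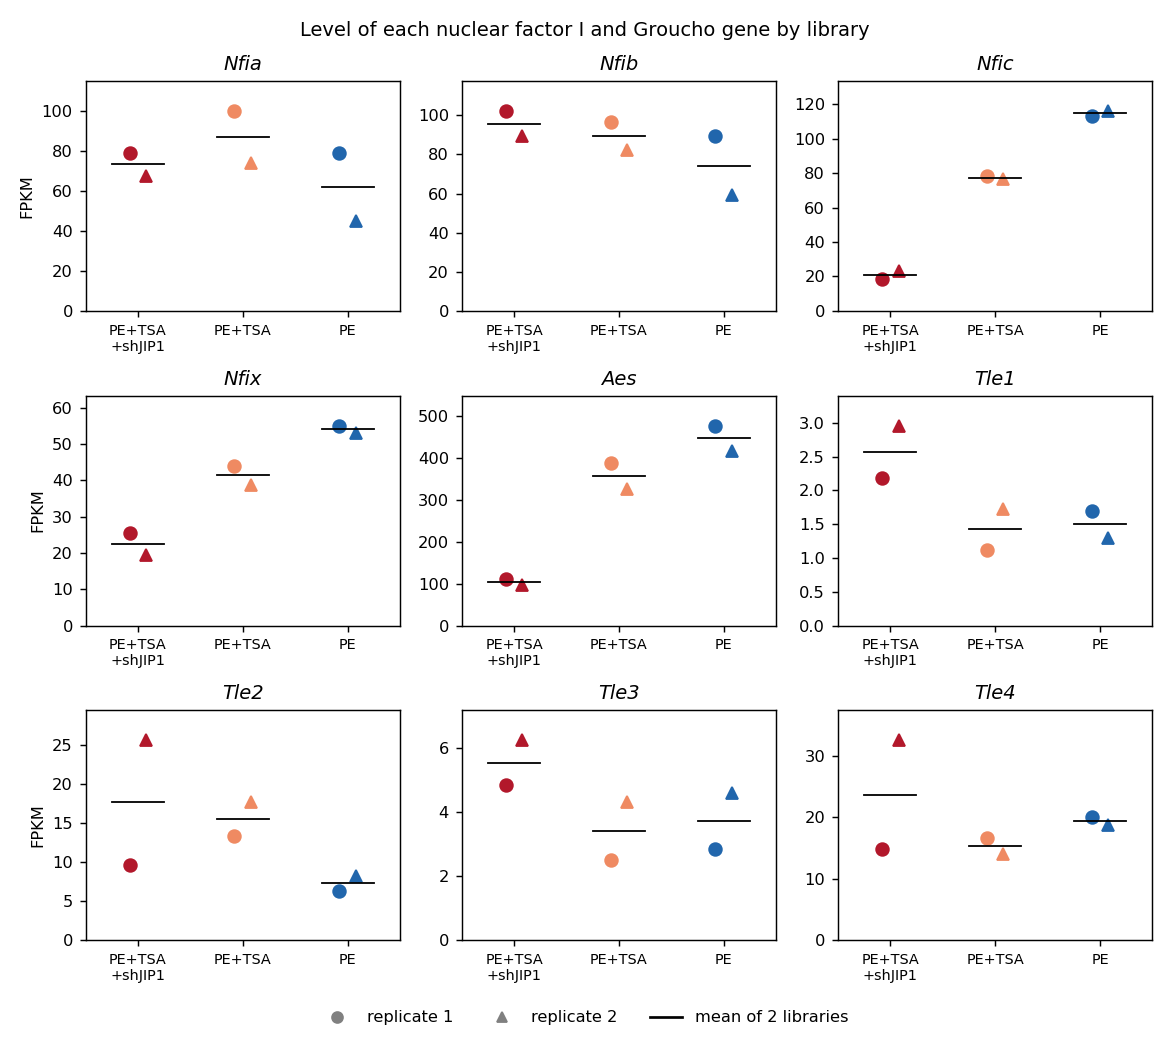
FPKM (vertical axis, from 0, a separate scale for each gene) of the 9 genes in the 6 libraries, grouped as PE+TSA+shJIP1, PE+TSA and PE; circles are replicate 1, triangles replicate 2 and lines the mean of the 2 libraries. Nfic, Nfix and Aes are lowest in both PE+TSA+shJIP1 libraries, while Tle2 and Tle4 are highest in PE+TSA+shJIP1 replicate 2 alone.

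Aes had the highest FPKM of the 9 genes in all 6 libraries. It was at 110 and 97.2 FPKM in PE+TSA+shJIP1, 387 and 325 in PE+TSA, against 477 and 416 in PE. As with Nfic, the groups do not overlap and both PE+TSA+shJIP1 libraries are the lowest. PE+TSA+shJIP1 reached 0.232 of the PE mean (log2 change -2.09 ± 0.207, n = 2 libraries each, limma adjusted p = 0.0122) and 0.292 of the PE+TSA mean. PE+TSA stood at 0.797 of the PE mean and did not pass (log2 change -0.33 ± 0.207, limma adjusted p = 0.427). Even at its lowest, Aes was above 93.0% of tested features in its library.

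The long corepressors were far less abundant than Aes, and none of the 4 passed in either tested comparison. Tle4, which mouse work ties to B-cell and blood cell development, was at 14.9 and 32.6 FPKM in PE+TSA+shJIP1, 16.7 and 14.1 in PE+TSA, against 20.1 and 18.7 in PE. Tle2 was at 9.67 and 25.6 FPKM in PE+TSA+shJIP1, 13.3 and 17.7 in PE+TSA, against 6.29 and 8.23 in PE. For both genes PE+TSA+shJIP1 replicate 2 is the highest of the 6 libraries, and it is 2.19 and 2.65 times replicate 1 of its own group. The log2 change of Tle2 was 1.04 ± 0.453 in PE+TSA+shJIP1 against PE and 1.0 ± 0.453 in PE+TSA against PE (limma adjusted p = 0.18 and 0.306), with every TSA-treated library above both PE libraries. Without PE+TSA+shJIP1 replicate 2 the log2 change of Tle2 against PE was 0.38, and that of Tle4, which was 0.18 ± 0.37 with all libraries (limma adjusted p = 0.77), was -0.36.

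Tle1 and Tle3 were low. Tle1 was at 2.18 and 2.96 FPKM in PE+TSA+shJIP1, 1.12 and 1.72 in PE+TSA, against 1.69 and 1.30 in PE. Tle3, which acts with PPAR gamma in fat cells of the mouse, was at 4.84 and 6.25 FPKM in PE+TSA+shJIP1, 2.49 and 4.30 in PE+TSA, against 2.86 and 4.60 in PE. Both genes were highest in the 2 PE+TSA+shJIP1 libraries, while PE+TSA and PE overlap. The log2 changes in PE+TSA+shJIP1 against PE were 0.51 ± 0.378 and 0.49 ± 0.373 (limma adjusted p = 0.397 and 0.415), and in PE+TSA against PE they were -0.05 ± 0.378 and -0.11 ± 0.373 (limma adjusted p = 0.956 and 0.891). A change of this size in a gene below 7 FPKM is understated on the log2(FPKM + 1) scale.

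The balance between the short and the long members differed between groups as Aes did. Aes was 3.49 and 1.44 times the summed FPKM of Tle1 to Tle4 in PE+TSA+shJIP1, 11.5 and 8.58 times in PE+TSA, against 15.4 and 12.7 times in PE. The sum of the 4 long members was 31.6 and 67.4 FPKM in PE+TSA+shJIP1, 33.7 and 37.8 in PE+TSA, against 30.9 and 32.8 in PE. The ratio in the PE+TSA+shJIP1 libraries thus lies below all others in both replicates. Since Aes was chosen for being low there, this is no independent result. The difference in ratio between these 2 replicates comes with the high Tle2 and Tle4 of replicate 2. Tle4 held 47.1% and 48.4% of this sum in PE+TSA+shJIP1, 49.6% and 37.3% in PE+TSA, against 64.9% and 57.0% in PE. Tle2 held 30.6% and 38.0% in PE+TSA+shJIP1, 39.6% and 46.8% in PE+TSA, against 20.4% and 25.1% in PE, so that Tle4 was the largest of the 4 in every library but PE+TSA replicate 2.

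**Figure D2:**
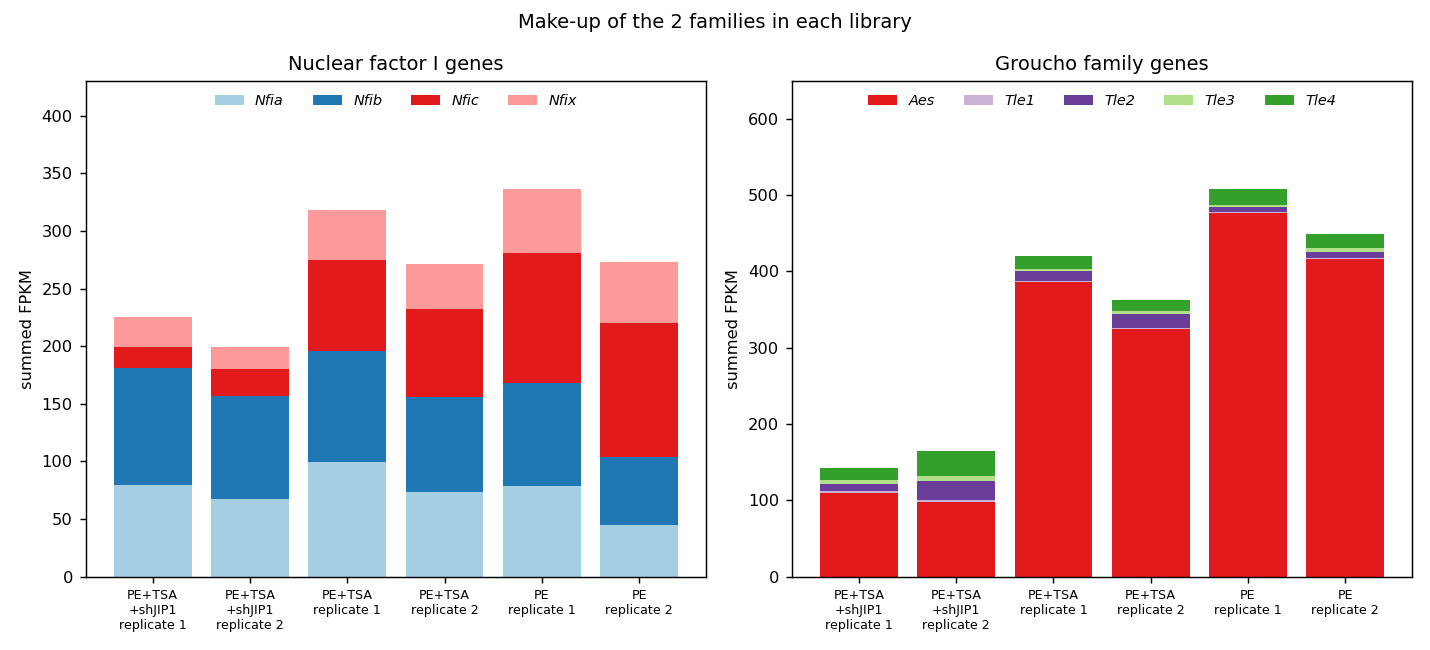
Summed FPKM (vertical axis, from 0) of the nuclear factor I genes (left) and the Groucho genes (right) in each library, with a coloured segment for each gene. The Nfic segment holds 8.14% and 11.7% of the bar in PE+TSA+shJIP1 and 33.7% and 42.5% in PE, and the Aes segment makes up most of every Groucho bar.

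Counted over all members, PE+TSA+shJIP1 against PE gave 3 of 9 past the threshold, all lower, against 8.27% of all tested features (4.16% lower). Groups did not overlap for 7 of 9 (4 higher, 3 lower), against 60.6% of all features (33.9% higher, 26.7% lower), and 3 of 9 had an unadjusted p under 0.05, against 30.7%. The median log2 change of the 9 was 0.29 against 0.10 over all features. Since Nfic and Aes were chosen for being low in PE+TSA+shJIP1, the count of 3 is no independent result.

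In PE+TSA against PE, limma called 0 of 9 members, against 0.811% of all features, and 1 of 9, Nfic, had an unadjusted p under 0.05, against 18.7%. Groups did not overlap for 5 of 9, near the background of 50.6% (29.5% higher, 21.1% lower). The 5 were Tle2, higher, and Nfic, Nfix, Aes and Tle4, lower. The median log2 change was -0.11 against 0.10 over all features, and quantile normalization put the median of all features at -0.02. Under that scaling Nfic was at -0.56, Nfix at -0.42 and Aes at -0.34.

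PE+TSA+shJIP1 and PE+TSA, the comparison that guided the choice, did not overlap for 5 of 9 members against 50% of all features (24.9% higher, 25.1% lower), with Nfic, Nfix and Aes lower and Tle1 and Tle3 higher. The log2 changes in it ran from -1.85 for Nfic and -1.77 for Aes through -0.86 for Nfix to 0.56 for Tle1 and 0.60 for Tle3, with Nfia, Nfib, Tle2 and Tle4 at -0.23, 0.10, 0.04 and 0.50. Single libraries decide these last 4 values: with 1 library left out, Nfia ran from -0.45 to -0.019, Nfib from -0.012 to 0.21, Tle2 from -0.62 to 0.70 and Tle4 from -0.042 to 1.04, with the lowest value of Tle2 and of Tle4 without PE+TSA+shJIP1 replicate 2 and the highest without replicate 1. Nfic stayed between -2.02 and -1.69, Aes between -1.89 and -1.64 and Nfix between -1.06 and -0.67. The median was 0.04 against -0.003 over all features, and nothing is read from these counts.

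**Figure D3:**
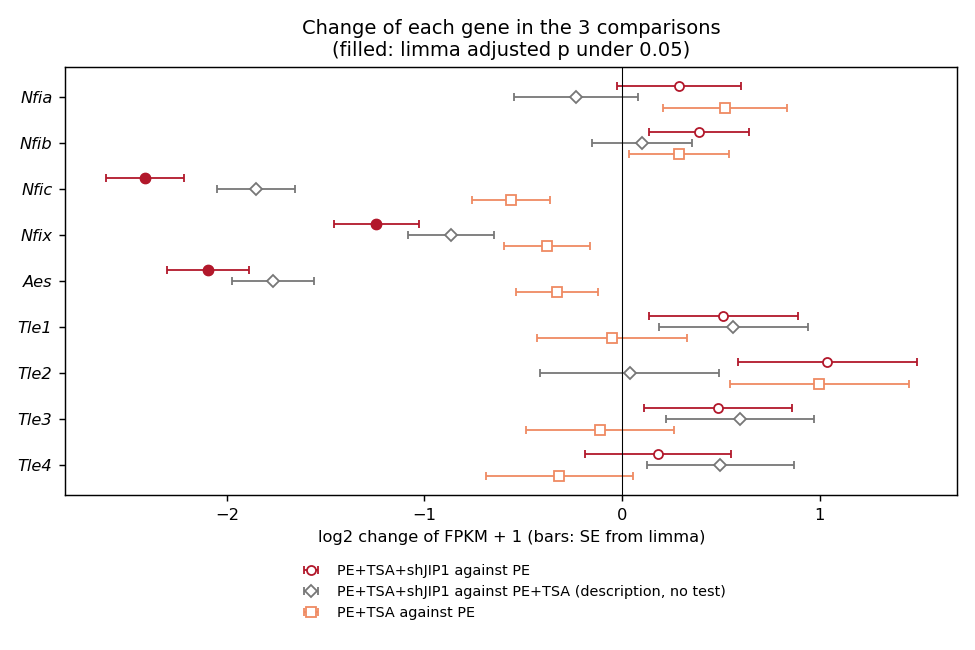
Log2 change of FPKM + 1 (horizontal axis) of each gene in PE+TSA+shJIP1 against PE (circles), PE+TSA+shJIP1 against PE+TSA (diamonds, a description with no test) and PE+TSA against PE (squares); bars are the SE from limma, and filled symbols passed at an adjusted p under 0.05. The filled symbols are Nfic at -2.42, Aes at -2.09 and Nfix at -1.24, all in PE+TSA+shJIP1 against PE.

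The calls of Nfic, Aes and Nfix in PE+TSA+shJIP1 against PE lean on the spread shared by all 6 libraries. With only the 2 groups compared, the log2 changes were the same and the adjusted p from limma was 0.0518, 0.0518 and 0.0693, while the call count over all features was 4 instead of 857. Leaving out 1 library in turn gave log2 changes of -2.58 to -2.25 for Nfic, -2.19 to -2.0 for Aes and -1.44 to -1.05 for Nfix, and the calls of Nfic and Aes held only without PE replicate 1 (limma adjusted p = 0.0219 and 0.025), that of Nfix in none of the 6 cases (0.0572 to 0.164).

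Markers of other cell types moved in the same comparison. Of 10 fibroblast markers 8 were tested, and 7 of them were lower in PE+TSA+shJIP1 than in PE, with summed levels of 575 to 693 FPKM against 1050 to 1700, and Col1a2 at or near 0 in all libraries. Dcn passed as lower (log2 change -1.46, limma adjusted p = 0.0338). The exception, Thy1, passed as higher, at 10.9 and 17.3 FPKM in PE+TSA+shJIP1 against 3.29 and 1.56 in PE (log2 change 2.16, limma adjusted p = 0.026). These calls were lost in 9 (Dcn) and 7 (Thy1) of 14 alternative settings. The smooth muscle and pericyte list summed to 501 to 520 FPKM in PE+TSA+shJIP1 against 1360 to 1670 in PE, with 6 of 7 tested markers lower and Rgs5 at 0 in at least 1 library. All 9 tested cardiomyocyte markers were lower too. Between PE+TSA+shJIP1 and PE+TSA the sums of the fibroblast list overlap (575 to 693 against 544 to 753 FPKM). So do those of the cardiomyocyte list (4970 to 9510 against 4950 to 10800) and the neuronal list (393 to 839 against 507 to 999). The neuronal sum is mostly Vgf, and all 8 tested features of that list were lower, with 0 higher (median log2 change -0.44). Of these, Snap25 was at 20.0 and 21.8 FPKM in PE+TSA+shJIP1 against 39.3 and 49.9 in PE+TSA. Of the tested cardiomyocyte markers 6 were lower and 3 higher, with Tnni3, Myl3 and Pln lower without overlap. Tnni3 was at 237 and 179 FPKM in PE+TSA+shJIP1 against 618 and 366 in PE+TSA. Myl3 was at 391 and 350 against 825 and 530, and Pln at 107 and 45.1 against 535 and 200. The sums of the smooth muscle and pericyte list and of the endothelial list do not overlap. The smooth muscle and pericyte list summed higher, at 501 to 520 FPKM in PE+TSA+shJIP1 against 267 to 411 in PE+TSA. Its tested markers were mixed, with 4 higher and 3 lower (median log2 change 0.002), and Tagln was at 229 and 241 FPKM against 99.6 and 45.6. The endothelial list summed lower, at 11.5 to 17.2 against 20.0 to 40.1 FPKM. Its tested markers were mixed too, with 3 lower and 2 higher, and Kdr was at 3.72 and 4.57 FPKM against 11.9 and 30.1. Endothelial markers summed to 11.5 to 17.2 FPKM in PE+TSA+shJIP1 and 15.4 to 17.0 in PE, with Vwf and Emcn at 0 in at least 1 library, and macrophage markers to 9.53 to 11.3 in PE+TSA+shJIP1 and 17.9 to 21.6 in PE, with C1qa and C1qb likewise. The neuronal list, led by Vgf, summed to 393 to 839 FPKM in PE+TSA+shJIP1 against 5.21 to 8.06 in PE. The part of cell make-up in the member levels was not tested, and in bulk RNA fewer cells of a type and less RNA per cell cannot be told apart.

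The genes that stand between Aes and Nfic on chromosome 7 gave a mixed picture. Gna11, a G protein alpha subunit of the Gq class, fell in PE+TSA+shJIP1 against PE: it was at 6.14 and 9.95 FPKM in PE+TSA+shJIP1, 16.1 and 10.3 in PE+TSA, against 23.2 and 25.9 in PE (log2 change -1.53 ± 0.323, limma adjusted p = 0.0419). Ncln, which encodes nicalin of the endoplasmic reticulum, also fell, with 12 and 14 FPKM in PE+TSA+shJIP1, 16.1 and 18.6 in PE+TSA, against 25.2 and 29.3 in PE (log2 change -1.02 ± 0.222, limma adjusted p = 0.0452). Celf5, an RNA-binding protein gene, was higher in PE+TSA+shJIP1 than in PE in both libraries but did not pass (log2 change 1.36 ± 0.559, limma adjusted p = 0.161), while Gna15 and S1pr4 were below the filter and Tle6, on the far side of Tle2, was not analysed here. The calls of both Gna11 and Ncln are near the threshold and were lost in 10 (Gna11) and 9 (Ncln) of 14 alternative settings, with the log2 change at -1.84 to -1.22 and -1.12 to -0.91. In PE+TSA+shJIP1 against PE+TSA neither Gna11 (log2 change -0.66 ± 0.323, limma adjusted p = 0.415) nor Ncln (-0.39 ± 0.222, limma adjusted p = 0.476) passed. Over all tested features, 4.16% were called lower in PE+TSA+shJIP1 against PE, and 26.7% were lower without overlap. These neighbours were looked at after the values of Nfic and Aes were seen.

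**Figure D4:**
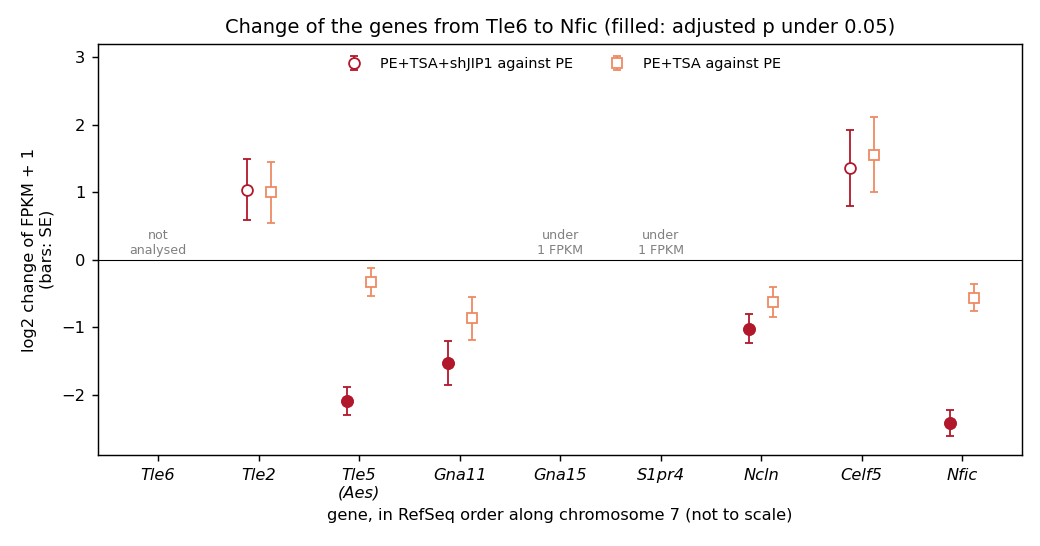
Log2 change of FPKM + 1 (vertical axis) of the 6 tested genes among the 9 from Tle6 to Nfic in their order along chromosome 7 (horizontal axis, not to scale), in PE+TSA+shJIP1 against PE (circles) and PE+TSA against PE (squares); bars are the SE from limma and filled symbols passed. Aes (Tle5), Gna11, Ncln and Nfic lie below 0 in both comparisons, while Tle2 and Celf5 lie above; Tle6 was not analysed here, and Gna15 and S1pr4 were under 1 FPKM.

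The features most like Nfic and Aes over the 6 libraries were found by the smallest root mean square difference between centred log2(FPKM + 1) values, among 7785 other features that averaged 5 FPKM or more. For Nfic they were Tmem51 (0.079), Eif4ebp1 (0.113) and Ppif (0.191). For Aes they were Pdgfc (0.146), Eif4ebp1 (0.156) and Sumo3 (0.166). Eif4ebp1, which encodes an inhibitor of cap-dependent translation, was at 44.9 and 45.8 FPKM in PE+TSA+shJIP1, 153 and 144 in PE+TSA, against 219 and 231 in PE. Aes came in at rank 6 for Nfic, and Nfic at rank 15 for Aes, with a difference of 0.22. Both genes were chosen for being low in PE+TSA+shJIP1, so their likeness over these libraries is no independent result.

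Genes that work with these proteins were read from 5 lists of 95 genes in all, of which 65 genes (66 features) were tested. PE+TSA+shJIP1 against PE gave 0 higher and 3 lower past the threshold, 4.55% of the 66 features, against 8.27% of all features (4.16% lower), and a median log2 change of -0.04 against 0.10 over all features. PE+TSA against PE gave 0 higher and 1 lower, or 1.52%, against 0.811% of all features, with a median of 0.10 against 0.10. PE+TSA+shJIP1 against PE+TSA gave 0 in limma, with 7 at an unadjusted p under 0.05, and a median of -0.03 against -0.003, where 0.29% of all features passed and 14.9% had such an unadjusted p.

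In the list of genes tied to nuclear factor I in earlier work, Eno3 and Ckm, muscle enzymes that Nfix is known to activate in fetal mouse muscle, fell in PE+TSA+shJIP1 against PE. Eno3, the muscle enolase, was at 7.27 and 8.55 FPKM in PE+TSA+shJIP1, 11.2 and 10.5 in PE+TSA, against 54.1 and 52.6 in PE, so that most of the difference was already there with TSA alone (limma adjusted p = 0.0103 against PE, and 0.0295 for PE+TSA against PE). Ckm, the muscle creatine kinase, was at 33.5 and 40.3 FPKM in PE+TSA+shJIP1, 72.3 and 39.8 in PE+TSA, against 106 and 89.2 in PE (limma adjusted p = 0.049 against PE). The call of Ckm was lost in 11 of 14 alternative settings, and those of Eno3 in 6 and in 7. The list of 10 had 6 genes tested, with 5 lower in PE+TSA+shJIP1 than in PE (median log2 change -0.85) and 6 lower in PE+TSA than in PE (median -0.71). These counts do not separate genes that nuclear factor I proteins activate from genes they repress. Myh7, also on the cardiomyocyte list, was at 152 and 48.0 FPKM in PE+TSA+shJIP1 against 488 and 498 in PE (log2 change -2.51, limma adjusted p = 0.0832). All 9 tested cardiomyocyte markers were lower in PE+TSA+shJIP1 than in PE. In PE+TSA+shJIP1 against PE+TSA, limma called 0 of the 6 tested genes of the nuclear factor I list, against 0.29% of all features. An unadjusted p under 0.05 was found for 0 of them, against 14.9%. With 4 higher and 2 lower (median 0.12 against -0.003 over all features), nothing is read from these counts.

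Among transcription factors that recruit Groucho proteins, 1 of 13 tested features fell in PE+TSA+shJIP1 against PE, a listing of Heyl, a Notch target, where 4.16% of all features were called lower. This listing was at 1.17 and 0.478 FPKM in PE+TSA+shJIP1, 3.98 and 1.78 in PE+TSA, against 10.5 and 10.1 in PE (log2 change -2.66, limma adjusted p = 0.0221), while the second listing of Heyl was higher in PE+TSA+shJIP1 than in PE and did not pass (limma adjusted p = 0.187). The call was lost in 7 of 13 alternative settings. Hes1, the best known partner of these corepressors, was at 22.6 and 26.7 FPKM in PE+TSA+shJIP1, 20.5 and 26.5 in PE+TSA, against 22.7 and 23.1 in PE. Heyl was also the only one of 17 tested features of the Notch list to pass there.

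None of the 20 tested Wnt and beta-catenin genes passed in PE+TSA+shJIP1 against PE in limma, and 7 had an unadjusted p under 0.05, as did 30.7% of all features. The smallest p were those of Bcl9l, a beta-catenin cofactor, at 8.62 and 13.3 FPKM in PE+TSA+shJIP1 against 20.2 and 28.5 in PE (limma adjusted p = 0.068), and of Axin2, a beta-catenin target, at 2.76 and 3.42 FPKM in PE+TSA+shJIP1 against 0.84 and 0.603 in PE (limma adjusted p = 0.0747). Bcl9l passed with the replicate block (limma adjusted p = 0.0463) and Axin2 with no variance trend (0.043). None of the 15 tested corepressors and partner deacetylases passed in limma, and 5 had an unadjusted p under 0.05, against the same 30.7%. Of these, Sin3a, a scaffold of deacetylase complexes, was at 41.8 and 41.0 FPKM in PE+TSA+shJIP1 against 25.5 and 24.3 in PE (limma adjusted p = 0.0659), and Rbbp4, a histone-binding subunit, at 3.52 and 3.18 FPKM in PE+TSA+shJIP1 against 10.6 and 7.64 in PE (limma adjusted p = 0.0708).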

How the data were processed

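A commercial RNA kit and an Illumina TruSeq library kit were used, per the labels' protocols. Expression values are those of the authors, 1 deposited table that lists FPKM by gene in 6 library columns. The unit is not in its header and was read from the values and from Cufflinks, a tool with FPKM output, named with build rn6 per the submitters' processing notes. The sources used here give no aligner, annotation, read length or strand. Reads shared between family members or overlapping genes could therefore not be told apart.

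Group means were fitted on log2(FPKM + 1) for 10359 features, those averaging 1 FPKM or more across the libraries, using limma 3.58.1 in R 4.3.3 and a prior variance that follows the mean (3 residual and 3.27 prior degrees of freedom). Tests are two-sided, with Benjamini-Hochberg adjustment over all features of a comparison and a threshold of 0.05. The fit was run on simulated data with normal noise and no shallow library. The check required only that median estimates lay close to the planted changes, so it does not bear on the calls in these data. Relative depth is the most frequent ratio of low values (below 0.3 FPKM in PE replicate 1) and rests on 21 to 48 features a library. Symbols were matched by name or older name to RefSeq (GRCr8); all 9 members matched.

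The members and lists were chosen with earlier results of these data known. The text names every member, Mapk8ip1, list genes past the threshold or else the smallest p of a list, and the 3 closest patterns to Nfic and to Aes. Hes1, Myh7, Tnnt2, other single cell type markers and the neighbouring genes were added after their values were seen. Alternatives were another pseudocount, 2 other filters, 2 scalings, no variance trend, only the groups compared, a replicate block and each library left out, with the filter kept on the mean of all 6.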

Additional observations from a re-analysis of the deposited data

How the results depend on the processing

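Over 14 alternative settings, Nfic and Aes stayed lower in PE+TSA+shJIP1 than in PE, with the call lost in 6 (limma adjusted p 0.0087 to 0.0893 for Nfic, 0.0087 to 0.115 for Aes), and Nfix stayed lower with the call lost in 7 (0.021 to 0.164). The number of features past the threshold moved far more: 857 in PE+TSA+shJIP1 against PE became 374 with no filter, 4 with only the 2 groups compared and 4 to 941 with 1 library left out. The 84 of PE+TSA against PE became 3 with no filter, 36 with no variance trend, 5 with only the 2 groups compared, 28 with the replicate block and 6 to 203 with 1 library left out, the 203 without PE replicate 1. The 30 of PE+TSA+shJIP1 against PE+TSA became 0, 2, 8 and 18 under those 4 settings and 7 to 16 with 1 library left out. The cause was not tested; a fit on fewer libraries has fewer degrees of freedom. Libraries with the same replicate number deviated together only weakly (correlations of 0.122, 0.0396 and 0.0735), so the numbers were not taken to pair them, and the replicate block gave 1063 calls in PE+TSA+shJIP1 against PE. Signs turned for 8 log2 changes of members with 1 library left out. Nfia in PE+TSA+shJIP1 against PE ran from -0.11 (without PE replicate 2) to 0.69, and Tle4 there from -0.36 (without PE+TSA+shJIP1 replicate 2) to 0.72. In PE+TSA against PE, Nfib ran from -0.0025 (without PE replicate 2) to 0.58. Tle1 there ran from -0.23 to 0.13, at 0.13 when PE+TSA replicate 1 was left out and 0.062 when PE replicate 1 was. With all libraries, quantile normalization moved Tle1 further, from -0.05 to -0.50 in PE+TSA against PE and from 0.51 to 0.22 in PE+TSA+shJIP1 against PE. Tle3 in PE+TSA against PE ran from -0.41 to 0.19, at 0.19 when PE+TSA replicate 1 was left out and 0.16 when PE replicate 2 was. In PE+TSA+shJIP1 against PE+TSA, Nfib turned to -0.012 without PE+TSA replicate 2, Tle2 to -0.15 without PE+TSA replicate 1 and -0.62 without PE+TSA+shJIP1 replicate 2, and Tle4, at 0.50 with all libraries, to -0.042 without the same hairpin library. Where a group is left with 1 library, that library is assumed to vary like the others. With 2 libraries a group and PE replicate 2 shallow, small differences were not detectable.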
